A study of Mus musculus with 12 samples.

Results

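Fatty acid binding proteins are small intracellular carriers that hold long-chain fatty acids in the cytoplasm and pass them to membranes, enzymes and nuclear receptors. The adult brain is known for 3 of them, which are the genes described here. Fabp7, the brain type, is made by radial glia, astrocytes and oligodendrocyte precursors and prefers polyunsaturated fatty acids such as docosahexaenoic acid. Fabp5, the epidermal type, is found in several neural and vascular cell types, and Fabp3, the heart type, is mainly neuronal in the adult. Fabp7 was chosen by its TPM values, which were higher after restraint in both mouse strains of the study, and Fabp5 and Fabp3 were taken as its relatives in brain. The 3 genes were found by gene name among 55678 names, on 5 of the 147902 transcript rows, and all 3 were among the 16423 genes that passed the filter on low values (1 TPM or more in 3 libraries or more).

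RNA came from punches of medial prefrontal cortex, a region involved in the control of stress responses, taken after behavioural tests. Mice of 9 to 10 weeks were either handled (control) or held in restrainers for 6 h on each of 21 days (chronic restraint stress, CRS). The strains were BALB/cCrSlc, called BALB/c here, and C57BL/6JmsSlc, called B6, both inbred and without any transgene named in the labels. The 4 groups held 3 libraries each, called here by their library numbers: 2, 3 and 9 for B6 control, 12, 13 and 14 for B6 CRS, 5, 9 and 10 for BALB/c control, and 12, 13 and 15 for BALB/c CRS. The labels used here give no sex, litter, hour of killing or batch, and they do not say that each library came from a separate mouse, so p-values measure the spread between these libraries.

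Values were length-scaled transcript abundances (TPM), summed per gene. Every library totals 1000000 TPM, so depth is unknown. Mitochondrial transcripts took 17.35% to 23.88% of TPM and Bc1, a neuronal noncoding RNA, 8.68% to 13.52%. An 18S ribosomal RNA gene took 3.9719% in BALB/c CRS 12 and 0.0307% to 0.1688% elsewhere. Markers of excitatory neurons were present in every library, with a summed level of 3707 to 8290 TPM over 13 genes. Markers of striatal medium spiny neurons, a cell type of the neighbouring striatum, summed over 13 genes to 314.8 to 3163 TPM in B6 and to 215.3 to 503.4 TPM in BALB/c. B6 control 9 had the highest excitatory sum, the lowest astrocyte sum of the B6 libraries (7321 TPM over 20 genes) and the lowest striatal sum of the B6 libraries. In bulk tissue, fewer cells of a type and less RNA per cell cannot be told apart.

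In the GENCODE M21 annotation of GRCm38, Fabp7 (ENSMUSG00000019874.11) lies on the plus strand at chr10:57784881-57788450, Fabp5 (ENSMUSG00000027533.10) on the plus strand at chr3:10012548-10016607, and Fabp3 (ENSMUSG00000028773.8) on the plus strand at chr4:130308595-130315463. They are protein-coding genes of 132, 135 and 133 codons. Fabp7 and Fabp5 overlap no other annotated gene. Fabp3 overlaps Zcchc17 and Gm10570 on the opposite strand. The kit was stranded, but whether strand was used in quantification is not given in the sources used here. In controls Zcchc17 stood at 48.88 ± 3.644 TPM in the B6 group and 48.44 ± 1.769 TPM in the BALB/c group (SD, n = 3 each).

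The stretch upstream of Fabp7 is shown because the gene is known as a target of Notch signalling through RBPJ and as a gene under the circadian repressor Nr1d1, which binds the same core element as the ROR receptors. It runs from 250 to 51 bases before the RefSeq start (GRCm38.p6, chr10:57784673-57784872, plus strand), and capitals mark 2 motif matches.
Fabp7 upstream: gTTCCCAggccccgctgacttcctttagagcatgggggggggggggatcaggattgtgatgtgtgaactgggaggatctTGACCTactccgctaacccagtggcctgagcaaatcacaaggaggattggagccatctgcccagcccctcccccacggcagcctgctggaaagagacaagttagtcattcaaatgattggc
The match to the RBPJ core TGGGAA starts at -249 on the minus strand, and 25.56% of 32851 RefSeq promoter windows of 300 bases hold it on either strand. The match to the ROR element core AGGTCA starts at -171 on the minus strand and is found in 16.26% of the windows. The 300-base window of Fabp7, which reaches 50 bases past the start, held no match to TTGGCA (an NFI half-site, in 14.12% of windows), ATGCAAAT (the POU octamer, 1.74%), CACGTG (the E-box of clock factors, 7.15%), AGAACA (a glucocorticoid receptor half-site, 18.97%), TATAAA (13.62%) or TGACGTCA (the CRE, 1.79%). The window of Fabp3 held none of the 8 motifs on either strand, and the search was run on the 2 members that the promoter table lists. A match or its absence describes these letters and nothing about binding.

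Fabp5 has a processed pseudogene, Gm6166 (ENSMUSG00000074280.6, chr9:57483963-57484371, plus strand), that is 98.3% identical to it over 409 bases. The pair is shown because the direction of the Fabp5 strain difference depends on whether the copy is counted with Fabp5. How reads were divided between them was not examined. The 90 coding bases from 308 to 397, counted from 1 at the first coding base of Fabp5, hold 2 of their 5 substitutions, which are in capitals.
Fabp5: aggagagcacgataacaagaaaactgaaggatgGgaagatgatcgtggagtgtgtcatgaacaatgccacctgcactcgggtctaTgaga
Gm6166: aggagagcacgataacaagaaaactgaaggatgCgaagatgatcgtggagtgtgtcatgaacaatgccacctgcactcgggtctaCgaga
With the Fabp5 base first, the substitutions along the 405 coding bases are T9C, T189C, C261T, G341C and T393C, beside 2 gap bases. Fabp7 had no annotated transcript of another gene within 90% identity over 80% of the shorter sequence. Transcripts of Fabp7 and Fabp3 aligned at 72.2% identity over 291 bases.

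Fabp7 mRNA was higher after CRS in both strains, by 2.71 times in B6 and 2.04 times in BALB/c on the log2(TPM + 1) scale. In B6 controls the libraries gave 35.51 (library 2), 30.26 (3) and 19.51 TPM (9), and in B6 CRS 69.75 (12), 74.01 (13) and 87.00 TPM (14). In BALB/c controls they gave 39.63 (5), 44.79 (9) and 46.87 TPM (10), and in BALB/c CRS 86.81 (12), 83.20 (13) and 100.87 TPM (15). Every CRS library lay above every control library, also across strains. Among tested genes, 8.33% in B6 and 7.39% in BALB/c had 3 CRS and 3 control libraries that did not overlap, and the separation of Fabp7 is a description because the gene was picked for it.

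**Figure D1:**
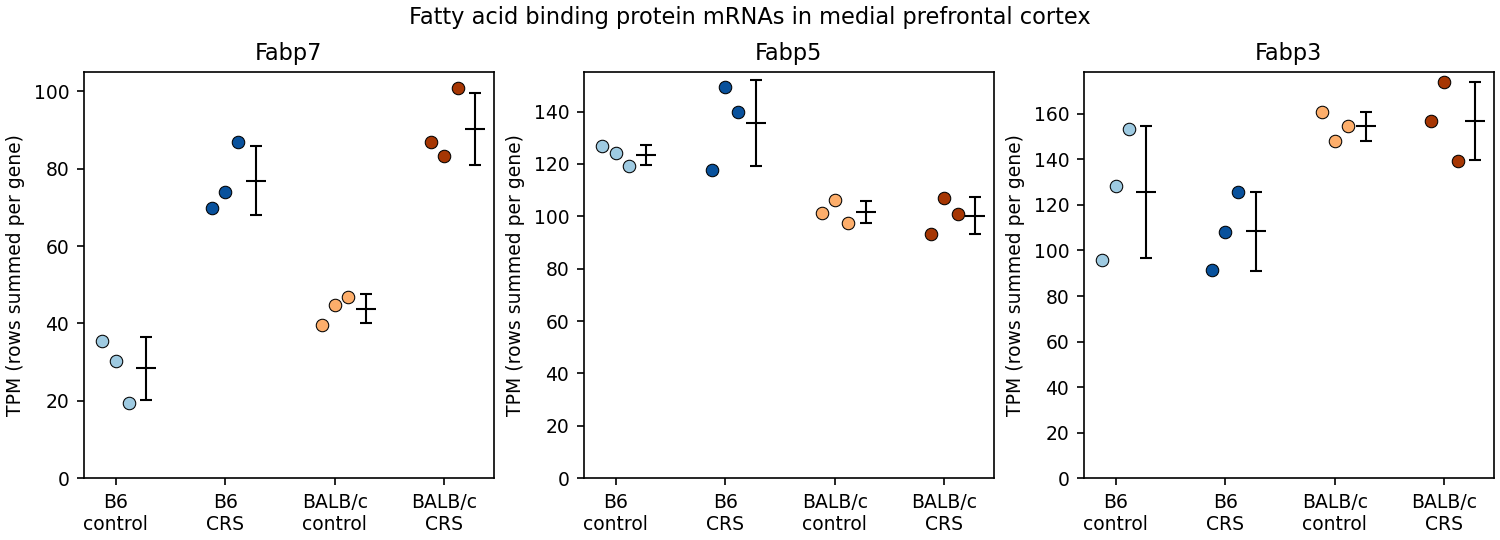
TPM of Fabp7, Fabp5 and Fabp3 (y axes, linear from 0) in the 4 groups (x axis). Points are libraries, and bars are the mean ± SD of 3. Fabp7 lies between 69.75 and 100.87 TPM after CRS and between 19.51 and 46.87 TPM in controls, Fabp5 is lower in the BALB/c libraries, and Fabp3 overlaps between treatments.

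The group means of Fabp7 rose in the order B6 control (28.43 ± 8.153 TPM), BALB/c control (43.76 ± 3.728), B6 CRS (76.92 ± 8.983) and BALB/c CRS (90.3 ± 9.333; SD, n = 3 each). The libraries of the last 2 groups overlap, and those of the other neighbours do not. The log2 difference with CRS was 1.44 in B6 (SE 0.18) and 1.03 in BALB/c (SE 0.18). The BALB/c difference minus the B6 difference was -0.41 (SE 0.26). It depended on B6 control 9, the lowest library: without it the B6 difference was 1.20 and the difference between strains -0.17. The rule used these contrasts, so they carry no p-value or interval here and are a description.

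The deposited table lists Fabp7 on 2 rows, which are not tied to named transcripts. The major row carried 95.51% to 100% of the gene in each library. In B6 it read 34.55, 30.26 and 19.00 TPM in controls and 68.88, 73.61 and 84.28 TPM after CRS. In BALB/c it read 38.83, 44.07 and 46.19 TPM in controls and 84.65, 80.85 and 96.34 TPM after CRS, so the order of the groups was that of the gene sum. The minor row lay between 0 and 0.96 TPM in the 6 controls and between 0.40 and 4.53 TPM in the 6 CRS libraries. The 2 groups of the minor row did not overlap in BALB/c (0.68 to 0.80 TPM against 2.17 to 4.53 TPM) and overlapped in B6. Their log2 differences with CRS were 1.44 and 0.57 in B6 and 1.00 and 1.17 in BALB/c for the major and minor row.

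Fabp7 was higher in BALB/c than in B6 when the treatments were averaged, by 1.35 times (log2 difference 0.44, SE 0.13, 95% interval 0.15 to 0.72, adjusted p = 0.0359, limma; exact two-sided permutation p = 0.015). In that contrast 18.4% of genes were called at an adjusted p under 0.05. In controls, where the 3 libraries of each strain did not overlap, the difference was 0.64 (0.24 to 1.04) and did not pass (adjusted p = 0.0728, limma). There 4.73% of genes were called, and 22.9% had groups that did not overlap. It was 0.40 without B6 control 9, and 0.82 and called without B6 control 2 (adjusted p = 0.0266, limma). Under CRS the strains overlapped, and the difference was 0.23 (-0.17 to 0.63, adjusted p = 0.493, limma), in a contrast where 7.7% of genes were called and 29.3% had groups that did not overlap. The averaged call was lost when any of B6 CRS 12 or 13, BALB/c control 9 or 10, or BALB/c CRS 12 or 15 was left out (log2 0.40 to 0.45, adjusted p = 0.0614 to 0.0859, limma).

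Markers of astrocytes, a main source of Fabp7 in adult cortex, went the other way between the strains. Of 20 tested markers, 10 were called lower in BALB/c with the treatments averaged and 0 were called higher. In that contrast 18.4% of all genes were called, and 19 of the 20 markers lay below 0 (median log2 difference -0.32, against -0.08 over all genes). The called markers included Aldoc, Aqp4, Gja1, Glul, Mlc1, Apoe, Clu, Slc4a4 and Ntsr2. Aldoc, a glycolytic enzyme of astrocytes, had 633.7 ± 11.56 TPM in the B6 and 463.4 ± 11.54 TPM in the BALB/c control group (SD, n = 3 each), a log2 difference of -0.45 (adjusted p = 0.00571, limma). Aqp4, the water channel of astrocyte endfeet, had 29.11 ± 3.707 and 18.42 ± 2.138 TPM in the same groups (SD, n = 3 each; log2 difference -0.63, adjusted p = 0.036, limma). Apoe, a lipid carrier that astrocytes secrete, was lower with the treatments averaged (log2 difference -0.43, adjusted p = 0.00596, limma). The summed level of the 20 genes ranged from 7321 to 9157 TPM in B6 controls, 7890 to 8700 in B6 CRS, 6442 to 6561 in BALB/c controls and 5885 to 7110 in BALB/c CRS.

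With CRS, 0 of the 20 astrocyte markers was called in either strain. Of all tested genes 0% were called in B6 and 0.00609% in BALB/c, so the lack of calls says little about these markers. Their median differences were 0.03 in B6 and 0.10 in BALB/c, against 0.00 and 0.05 over all genes. Fabp7 was also expressed per 1000 TPM of these 20 genes, a ratio chosen after the values were seen. It was 3.88, 3.64 and 2.67 in B6 controls, 8.13, 9.38 and 10.00 in B6 CRS, 6.12, 6.83 and 7.28 in BALB/c controls, and 14.75, 11.95 and 14.19 in BALB/c CRS. On this scale the 4 groups did not overlap, and no share over other genes was computed for such a ratio. The CRS differences stayed near those of the TPM, at log2 1.45 in B6 and 1.01 in BALB/c. The strain difference was larger, at log2 1.00 in controls and 0.57 under CRS. It averaged to 0.79 (exact two-sided permutation p = 0.005, the smallest that 400 relabellings allow). The astrocyte sum was lower in BALB/c, so the division itself enlarges this difference, and the p-value is not separate support for it.

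**Figure D2:**
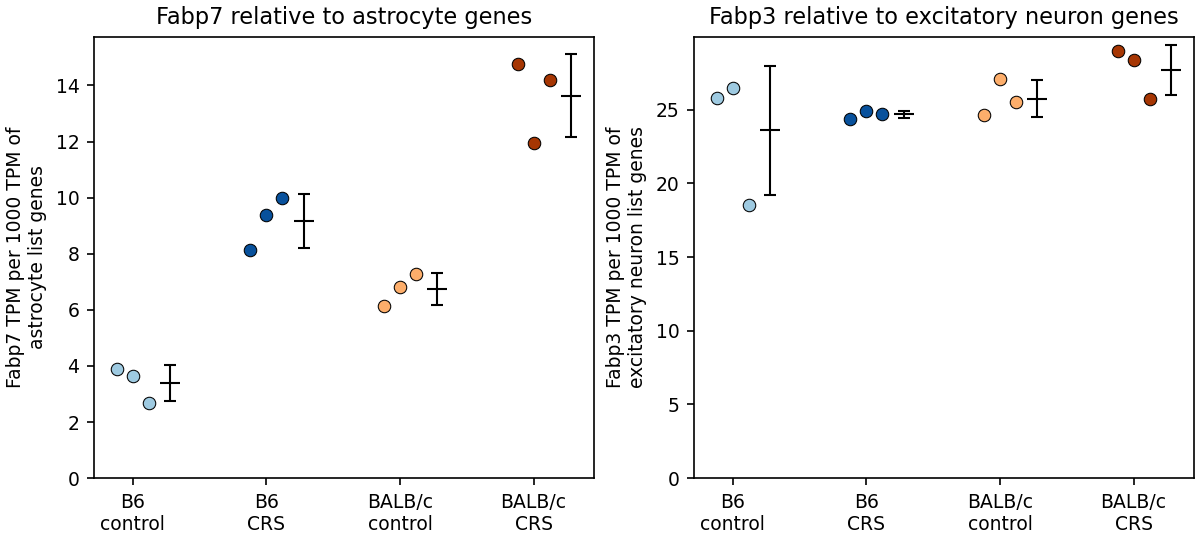
Left, Fabp7 TPM per 1000 summed TPM of 20 astrocyte genes, and right, Fabp3 TPM per 1000 summed TPM of 13 excitatory neuron genes (y axes, linear from 0), in the 4 groups (x axis). Points are libraries, and bars are the mean ± SD of 3. The Fabp7 ratio separates the 4 groups (means 3.40, 9.17, 6.74 and 13.63 in the order plotted), while the Fabp3 ratio overlaps between strains in controls and not under CRS.

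Other cell types that hold Fabp7 were read in the same way. Of 15 tested genes of neural stem cells and radial glia, 0 were called with CRS, where at most 0.00609% of all genes were called. The median over these 15 genes, averaged over strains, was 0.17 against 0.02 for all genes, with 13 above 0 and 2 below. Between strains, with the treatments averaged, 5 were called lower in BALB/c (Hopx, Sox4, Sox11, Dcx and Thbs4) and 0 higher. In all, 14 of the 15 lay below 0, so these too went against Fabp7. Sox11, a factor of immature neurons, had 6.668 ± 1.521 TPM in the B6 and 2.264 ± 0.3665 TPM in the BALB/c group under CRS (SD, n = 3 each; log2 difference -1.22, adjusted p = 0.0308, limma). Of 12 oligodendrocyte precursor genes, 0 were called with CRS, at a median of -0.03. Between strains, with the treatments averaged, 6 of them were called lower in BALB/c and 0 higher (Gpr17, Olig1, Olig2, Sox10, Vcan and Bmp4). Their list median was -0.46 against -0.08 over all genes, in a contrast where 18.4% of genes were called.

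In the lists of other cell types 0 genes were called with CRS, against at most 0.00609% of all genes. The list medians are given as a description. In B6 the median over 13 striatal genes was 1.12 (13 above 0), over 13 excitatory neuron genes -0.38 (0 above 0), and over 14 genes of choroid plexus, ependyma and meninges 0.26 (11 above 0). In BALB/c the same medians were -0.29 (2 above 0), -0.09 (5 above 0) and 0.41 (9 above 0). Myelin genes had medians of -0.16 in B6 and -0.28 in BALB/c, and 4 blood genes -0.61 and -0.91. The striatal sums were 3163, 583.9 and 314.8 TPM in B6 controls and 2626, 2000 and 1175 TPM in B6 CRS, and the groups overlapped. The part of cell makeup in the Fabp7 difference was not tested.

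With the treatments averaged, BALB/c libraries held 1.28 times less Fabp5 than B6 libraries, and Fabp5 did not change detectably with CRS. Its libraries gave 126.79, 124.05 and 119.36 TPM in B6 controls, 117.64, 149.53 and 139.94 TPM in B6 CRS, 101.30, 106.13 and 97.42 TPM in BALB/c controls, and 93.16, 107.00 and 100.74 TPM in BALB/c CRS. All 6 B6 libraries lay above all 6 BALB/c libraries, as 8.95% of tested genes did in either direction. The averaged log2 difference was -0.35 (SE 0.07, 95% interval -0.51 to -0.20, adjusted p = 0.00631, limma; exact two-sided permutation p = 0.005, the smallest possible). It was -0.43 under CRS (adjusted p = 0.0276, limma) and -0.28 in controls, which did not pass (adjusted p = 0.161, limma). The call under CRS was lost without B6 CRS 13 or 14 or BALB/c CRS 12 or 15 (adjusted p = 0.0683 to 0.101, limma).

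This strain difference reversed when the pseudogene was counted with Fabp5. Gm6166, singled out after its values were seen, was listed at 0 in all 6 B6 libraries. In BALB/c it was at 101.29, 101.66 and 92.46 TPM in controls and at 86.14, 98.89 and 98.24 TPM after CRS, a level close to that of Fabp5 itself. The other near-identical copies, Gm14328, Gm6100, Fabp5l2 and Gm13998, were listed at 0 in all 12 libraries. The sum of Fabp5 and its copies was 119.36 to 126.79 TPM in B6 controls, 117.64 to 149.53 in B6 CRS, 189.88 to 207.79 in BALB/c controls and 179.30 to 205.89 in BALB/c CRS. BALB/c then exceeded B6 by log2 0.69 in controls (adjusted p = 0.00151, limma), 0.52 under CRS (adjusted p = 0.00987, limma) and 0.61 averaged (adjusted p = 0.000139, limma). TPM is scaled by length, and Gm6166 (409 bases) is shorter than the 987 bases of the longest Fabp5 transcript, so the sum mixes 2 scales. Given the near identity, the levels of Fabp5 and of Gm6166 in BALB/c are uncertain, and so is the direction of the strain difference.

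**Figure D3:**
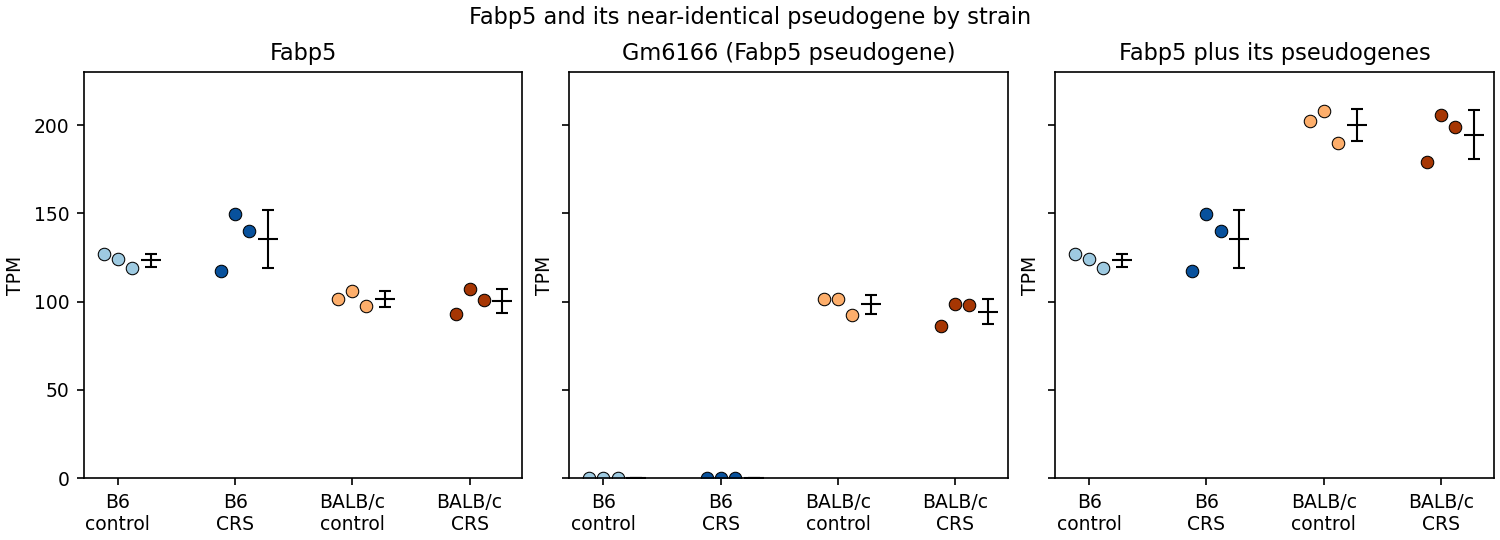
TPM (y axes, linear from 0) of Fabp5, of its processed pseudogene Gm6166 and of Fabp5 plus its pseudogenes in the 4 groups (x axis). Points are libraries, and bars are the mean ± SD of 3. Gm6166 is listed at 0 in the 6 B6 libraries and lies between 86.14 and 101.66 TPM in BALB/c, which puts the BALB/c sums above the B6 sums while Fabp5 alone is lower in BALB/c.

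With CRS, Fabp5 went from 123.4 ± 3.757 to 135.7 ± 16.36 TPM in B6 and in BALB/c from 101.6 ± 4.363 to 100.3 ± 6.930 TPM (SD, n = 3 each), and the groups overlapped in both strains. The log2 differences were 0.13 (95% interval -0.09 to 0.35) and -0.02 (-0.24 to 0.20), each with an adjusted p of 1 (limma). In B6 0% of genes were called (792 had an unadjusted p under 0.05), and in BALB/c 0.00609%, which is 1 gene, Gm47893, named after its values were seen. The averaged difference was 0.05 (-0.10 to 0.21, adjusted p = 0.984, limma; exact permutation p = 0.4), in a contrast where 0.00609% of genes were called. The difference of the CRS effect between strains was -0.15 (-0.46 to 0.17, adjusted p = 1, limma), in a contrast where 0% of genes were called and 443 had an unadjusted p under 0.05. Fabp5 has 2 rows, and the major row carried 98.2% to 99.14% of the gene.

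Fabp3 was higher in BALB/c than in B6 by 1.35 times with the treatments averaged (log2 difference 0.43, SE 0.12, 95% interval 0.17 to 0.68, adjusted p = 0.0249, limma; exact two-sided permutation p = 0.01). Its libraries gave 95.61, 128.17 and 153.52 TPM in B6 controls, 91.40, 107.94 and 125.85 TPM in B6 CRS, 160.89, 148.06 and 154.84 TPM in BALB/c controls, and 156.94, 174.06 and 139.49 TPM in BALB/c CRS. The strains overlapped in controls, through B6 control 9, and did not overlap under CRS. Of all tested genes, 29.3% had strains that did not overlap under CRS, and 18.4% were called with the treatments averaged. The difference was 0.54 under CRS (0.18 to 0.89, adjusted p = 0.0701, limma) and 0.32 in controls (-0.04 to 0.68, adjusted p = 0.326, limma), and neither passed. The averaged call was lost without B6 CRS 12, BALB/c control 5 or 10, or BALB/c CRS 12 or 13 (adjusted p = 0.0518 to 0.0642, limma).

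Fabp3 levels followed markers of excitatory neurons across the libraries. The 13 genes summed to 3707, 4845 and 8290 TPM in B6 controls 2, 3 and 9, in the order of Fabp3. They summed to 3747, 4332 and 5090 TPM in B6 CRS, 6534, 5464 and 6065 TPM in BALB/c controls, and 5416, 6139 and 5417 TPM in BALB/c CRS. With the treatments averaged, 3 of the 13 genes were called higher in BALB/c, among them Neurod6 and Cux2, transcription factors of cortical excitatory neurons (median 0.29 against -0.08 over all genes). The share is near the 18.4% of all genes called in that contrast. Fabp3 per 1000 TPM of this list, a ratio chosen after the values were seen, was 18.52 to 26.45 in B6 controls, 24.40 to 24.91 in B6 CRS, 24.62 to 27.10 in BALB/c controls and 25.75 to 28.98 in BALB/c CRS. The strains overlapped on that scale in controls and did not overlap under CRS (difference 0.16, exact two-sided permutation p = 0.1, the smallest that 20 relabellings allow). No share over other genes was computed for this ratio. The averaged strain difference was 0.15 (exact two-sided permutation p = 0.08), which did not pass. Striatal markers were highest in B6 control 2 (3163 TPM) and B6 CRS 12 (2626 TPM), the 2 libraries of lowest Fabp3. With the treatments averaged, 12 of 13 striatal markers were called lower in BALB/c and all 13 lay below 0. The part of cell makeup in the Fabp3 strain difference was not tested.

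With CRS, Fabp3 was 125.8 ± 29.03 and then 108.4 ± 17.23 TPM in B6 and in BALB/c 154.6 ± 6.418 and then 156.8 ± 17.28 TPM (SD, n = 3 each), and the groups overlapped in both strains. The log2 differences were -0.20 (95% interval -0.56 to 0.16) and 0.02 (-0.34 to 0.37), each with an adjusted p of 1 (limma). The average was -0.09 (-0.35 to 0.16, adjusted p = 0.984, limma; exact permutation p = 0.49). The difference between strains was 0.21 (-0.29 to 0.72, adjusted p = 1, limma). The intervals bound the CRS change of Fabp5 and Fabp3 in either strain to 0.56 log2 units or less in size, and do not show that it is absent. A processed pseudogene of Fabp3, Fabp3-ps1 (99.3% identical over 402 bases), was listed at 1.17, 2.89 and 5.25 TPM in B6 CRS 12, BALB/c CRS 13 and BALB/c CRS 15 and at 0 elsewhere.

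**Figure D4:**
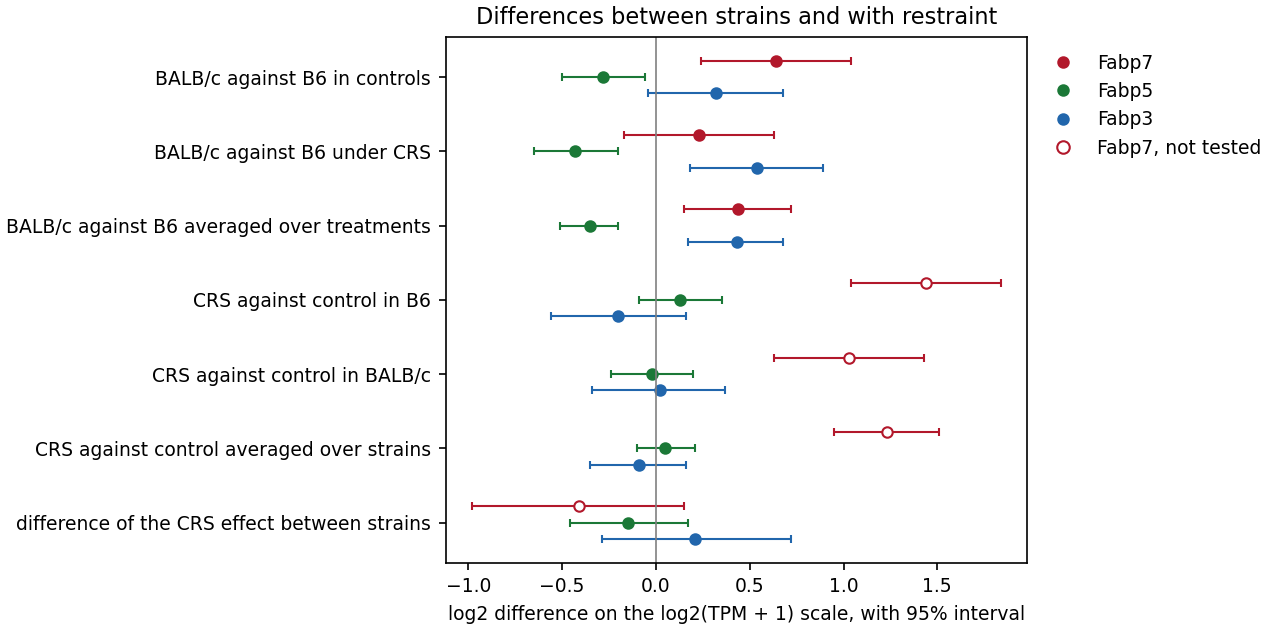
Log2 differences on the log2(TPM + 1) scale (x axis) of the 3 genes in 7 contrasts (y axis). Points are estimates from 12 libraries, and lines are 95% intervals. Open points are Fabp7 contrasts that the choice of the gene used, so their lines are not to be read as tests. With the treatments averaged, Fabp7 (0.44) and Fabp3 (0.43) lie above 0 and Fabp5 (-0.35) below, and with CRS the intervals of Fabp5 and Fabp3 include 0.

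Fit on single rows, fewer strain differences passed. Of 46000 rows, 1.69% were called in controls, 2.08% under CRS and 6.05% with the treatments averaged. The major Fabp5 row was called in the last (log2 -0.35, adjusted p = 0.0142, limma). The single Fabp3 row (0.43, adjusted p = 0.0607, limma) and the major Fabp7 row (0.42, adjusted p = 0.0915, limma) were not.

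As levels scaled by transcript length, the 3 genes were of the same order in this tissue. Over the 12 libraries the mean was 136.4 TPM for Fabp3, 115.3 for Fabp5 and 59.85 for Fabp7, which put them at the percentiles 94.3, 93.0 and 85.6 of tested genes. The place of Fabp5 depends on its copies: with them its group means were 123.4, 135.7, 200.1 and 194.7 TPM in B6 control, B6 CRS, BALB/c control and BALB/c CRS, above those of Fabp3 in 3 of the 4 groups. In B6 controls Fabp7 was the lowest of the 3 in every library. Over the 12 libraries Pearson r was -0.09 for Fabp7 with Fabp5, -0.04 for Fabp7 with Fabp3 and -0.65 for Fabp5 with Fabp3, and with group means subtracted it was 0.27, -0.57 and 0.20. These values describe 12 libraries that share strain and treatment.

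Other genes of the family were low or listed at 0. Fabp1, Fabp2, Fabp6, Fabp9 and Fabp12 were listed at 0 in all libraries. Fabp4, the adipocyte type, reached 0.45 TPM at most, and Pmp2, the myelin type, 0.06 TPM. Rbp7 reached 1.08 TPM and Rbp2 1.29 TPM, and neither passed the filter. Crabp1, a retinoic acid carrier, was at 5.232 ± 1.822 and 0.9858 ± 0.556 TPM under CRS (SD, n = 3 each), and its averaged strain difference was -1.26 (adjusted p = 0.0213, limma). Crabp2 was not called, with 1.457 ± 0.5687 TPM in the B6 and 1.206 ± 0.209 TPM in the BALB/c control group (SD, n = 3 each). Between strains, with the treatments averaged, Fabp3 was called upward and Crabp1 downward, and Fabp5 was called downward alone and upward with its copies added (-0.35 and 0.61). None of these 3 was called with CRS, where at most 0.00609% of all genes were called.

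Lists of other fatty acid genes are read against the 18.4% of all tested genes called between strains with the treatments averaged. Of 23 genes of fatty acid oxidation, 16 were called lower in BALB/c with the treatments averaged and 0 higher. All 23 lay below 0 (median -0.35 against -0.08 over all genes). The called genes included Cpt1a and Cpt2, which bring fatty acids into mitochondria, with log2 differences of -0.40 and -0.43 (adjusted p = 0.0143 and 0.0411, limma). Of 18 genes of uptake and activation, 6 were called lower (Acsl3, Acsbg1, Acsf2, Acsf3, Dbi and Scp2). Called higher were 2 (Acsl5, log2 difference 0.65, and Lpl, 0.54, with adjusted p = 0.0202 and 0.0243, limma). Dbi, an acyl-CoA binding protein, was the most abundant, with 302.7 ± 101.4 TPM in the B6 and 180.7 ± 19.28 TPM in the BALB/c control group (SD, n = 3 each), with an averaged difference of -0.79 (adjusted p = 0.0048, limma). Of 23 genes of synthesis, elongation and desaturation, 5 were called lower, a share near that of all genes (Scd2, Fads1, Fads6, Elovl1 and Elovl7). Scd2, a stearoyl-CoA desaturase, was at 450.9 ± 87.53 and 305.6 ± 23.14 TPM in the controls of B6 and BALB/c (SD, n = 3 each). Myelin genes, made by the lipid-rich oligodendrocytes, moved with these lists: 14 of 15 were called lower in BALB/c and all 15 lay below 0. Their sum was 2921 to 10920 TPM in B6 and 583.9 to 3510 TPM in BALB/c. Their part in the lipid lists was not tested.

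With CRS, none of these lists held a called gene in either strain or in the average. Of all tested genes, at most 0.00609% were called in those contrasts. The median over strains was 0.03 for uptake and activation, 0.03 for oxidation, 0.02 for synthesis and 0.03 for the lipid sensing nuclear receptors, against 0.02 over all genes. The receptors include the partners that these carriers deliver fatty acids to. Of 15 tested, 2 were called lower in BALB/c with the treatments averaged, Rxrg and Rarb. That share is below the 18.4% of all genes called in the same contrast. Rarb is also on the striatal list, whose genes were lower in BALB/c.

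Regulators linked to Fabp7 were not called with CRS either, in contrasts where at most 0.00609% of all genes were called. Of 22 tested genes of the Notch pathway and transcription factors linked to Fabp7, 15 were above 0 and 7 below it in the average over strains, with a median of 0.15. Hes5, a Notch target named after its values were seen, was at 15.15 ± 3.265 and 23.69 ± 3.721 TPM in the control and CRS groups of B6 and at 18.06 ± 1.561 and 22.55 ± 7.918 TPM in those of BALB/c (SD, n = 3 each; averaged difference 0.44, adjusted p = 0.946, limma). Rbpj, the DNA binding partner of Notch, was lower in BALB/c controls (9.694 ± 0.4802 and 6.332 ± 0.8749 TPM, SD, n = 3 each; log2 difference -0.55, adjusted p = 0.0312, limma). Pou3f3 and Pou3f4 were the other genes of the list called between strains in the average. Of the 22 genes, 1 was called in controls and 3 in the average. These shares are near or below the 4.73% and 18.4% of all genes called in those contrasts. Of 19 clock genes, 0 were called with CRS (median -0.09). Nr1d1, a repressor of the clock named after its values were seen, was at 42.53 ± 9.248 and 50.16 ± 1.186 TPM in the control and CRS groups of B6 and at 38.92 ± 6.794 and 55.39 ± 3.138 TPM in those of BALB/c (SD, n = 3 each; averaged difference 0.38, adjusted p = 0.946, limma). Ciart was lower in BALB/c controls, and Cry1 and Dbp were lower in BALB/c with the treatments averaged. With 1 and 2 of 19 clock genes called, these shares too are near or below those of all genes.

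**Figure D5:**
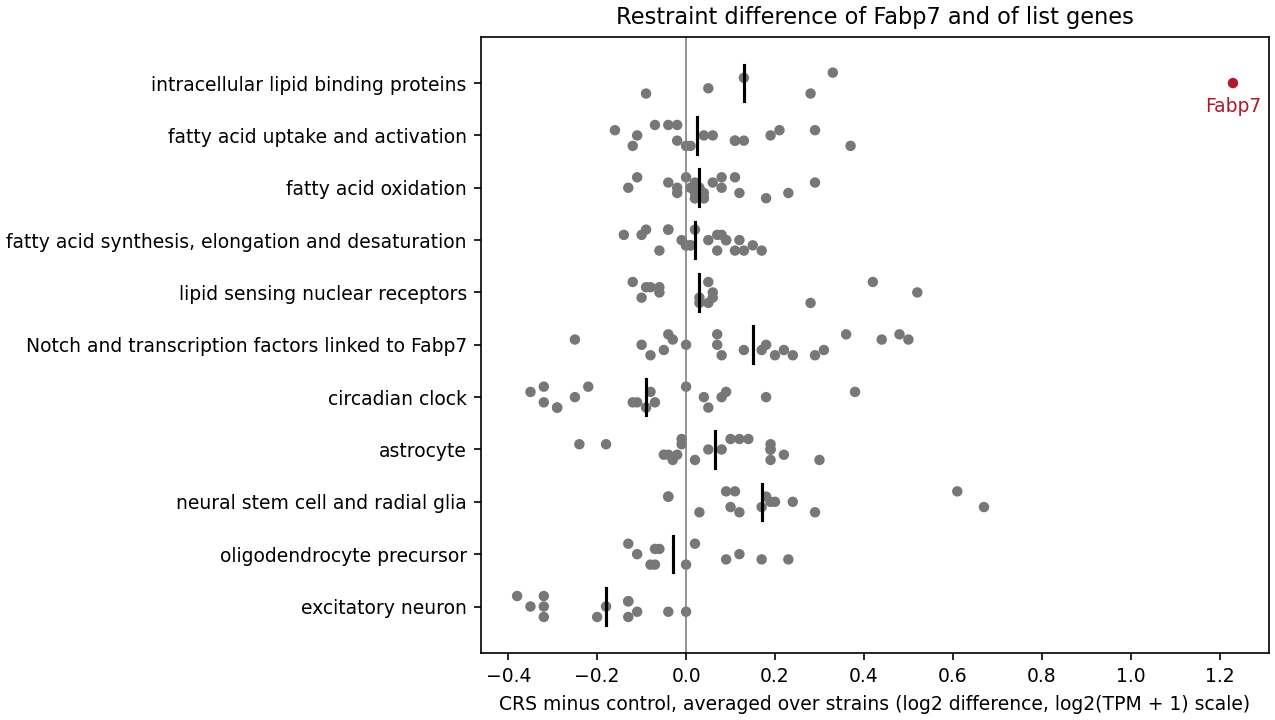
Log2 difference of CRS against control, averaged over strains (x axis), for the tested genes of 11 lists (y axis). Grey points are genes, the red point is Fabp7, and black bars are list medians without Fabp7. Fabp7 lies at 1.23, and the medians of the 11 lists plotted run from -0.18 for excitatory neurons to 0.17 for neural stem cells and radial glia. Of the lists not plotted, striatal neurons (0.42), choroid plexus, ependyma and meninges (0.37), myelin (-0.20) and blood (-0.76) lie outside that range.

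Among 10490 genes with a mean of at least 5 TPM, those whose log2 level was most like Fabp7 over the 12 libraries included Axin2 (r = 0.849), Ctu2 (0.848), Qtrt2 (0.839) and Snhg12 (0.832). Axin2, a feedback inhibitor and target of Wnt signalling, had a much narrower range than Fabp7, from 11.63 ± 1.48 TPM in B6 controls to 14.91 ± 0.77 TPM in BALB/c CRS (SD, n = 3 each). After subtraction of each group's mean, the genes most like Fabp7 were Vcan (0.901), Txnrd1 (0.888), Sall1 (0.886), Tspan12 (0.884) and Sox21 (0.882). Vcan, a matrix proteoglycan of oligodendrocyte precursors, was at 5.85 ± 2.00 TPM in the B6 and 3.50 ± 0.12 TPM in the BALB/c control group (SD, n = 3 each), so it resembled Fabp7 within groups and not between strains. The astrocyte list gave a median r with Fabp7 of -0.07 over the libraries and 0.38 within groups.

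The genes most like Fabp5 were Syngr2, Ptp4a2, Ndufb10, Snx6 and Med8 over the libraries, and Yju2, Rhou, Sec11c, Stx4a and Aga within groups. Those most like Fabp3 were Cck (0.977), Dkkl1, Gng3, Nr2f1 and Cxxc5 over the libraries, and Cyb561d1, Gng3, Cisd1, Bid and Fhl2 within groups. Cck, a neuropeptide of cortical neurons, ran from 488.96 ± 189.55 TPM in B6 CRS to 1132.27 ± 243.61 TPM in BALB/c controls (SD, n = 3 each). Over 12 excitatory neuron genes the median r with Fabp3 was 0.83 over the libraries and 0.75 within groups, against -0.02 and 0.28 over all genes compared. These correlations describe 12 libraries that share strain, treatment and dissection, and carry no p-value.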

How the data were processed

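The authors deposited TPM values per transcript row with gene names; the submitters' processing notes name GRCm38, cutadapt 2.9 and Salmon, and the libraries were made with a stranded mRNA kit, per the labels' protocols. TPM keeps no depth. Rows were summed per gene name here. The 16423 genes that reached 1 TPM in 3 or more libraries were fitted as log2(TPM + 1) with limma 3.58.1 in R 4.3.3, with 4 group means, an intensity trend and 8 residual degrees of freedom. P-values were adjusted by Benjamini-Hochberg over all tested genes, and a call is an adjusted p under 0.05. Fold changes on this scale understate those of low genes. Permutation tests were exact and two-sided, within treatment or strain: 20 relabellings (smallest p 0.1) in 1 stratum, 400 in 2.

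The members, lists and tests were chosen with earlier results of these data known. Genes named are the members, all lipid binding relatives, the 3 most abundant and the called genes of other lists (not all printed), and the 5 genes most like each member. Some of these genes are not reported here. The ratios, the 90% identity minimum and the final motif set were chosen after values were seen. Near-identical copies were found with blastn 2.17.0 among GENCODE M21 transcripts; motifs were searched in RefSeq promoters of GRCm38.p6. No 2 libraries were identical. Fits were tested on simulated data.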

Additional observations from a re-analysis of the deposited data

How the results depend on the processing

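Depth is not known from TPM, so low values have no counting error here. The Fabp5 strain difference reversed with near-identical copies added (0.69 in controls, 0.52 under CRS, 0.61 averaged). Fabp7 and Fabp3 averaged over treatments were not called with no filter on low values (0.44, adjusted p = 0.071, and 0.43, adjusted p = 0.0522, limma). Fabp3 averaged was not called relative to excitatory neuron genes (0.15, an alternative added after the data were seen). Fabp3 under CRS was called with median-of-ratios scaling (0.60, adjusted p = 0.0298, limma) and without mitochondrial, Bc1 and ribosomal RNA (0.60, adjusted p = 0.0273, limma). Small CRS differences changed sign: Fabp5 in BALB/c was 0.01 with the replicate block, and Fabp3 in BALB/c was -0.04 with median-of-ratios scaling and -0.01 without those RNAs. The cause of these changes was not tested.

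Leaving out 1 library at a time gave log2 differences between strains, averaged, of 0.32 to 0.52 for Fabp7, -0.40 to -0.32 for Fabp5 and 0.34 to 0.51 for Fabp3. In controls the ranges were 0.40 to 0.82, -0.31 to -0.25 and 0.14 to 0.48, and under CRS 0.15 to 0.32, -0.53 to -0.35 and 0.42 to 0.65. With CRS, Fabp5 ran from 0.06 to 0.23 in B6 and from -0.07 to 0.03 in BALB/c, and Fabp3 from -0.38 to -0.04 and from -0.06 to 0.10. Fabp7 ran from 1.20 to 1.62 and from 0.95 to 1.08, and its difference between strains from -0.59 to -0.17.

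Library numbers 9, 12 and 13 occur in both strains, which are different mice. The deviations of same-numbered libraries correlated at -0.242, -0.029 and -0.036, and they were not treated as pairs. The labels give no batch, so shared handling of same-numbered libraries is unknown. With the numbers as a replicate block, Fabp3 averaged over strains with CRS was 0.00 and Fabp7 was 1.50 in B6 and 1.09 in BALB/c. Over 21 results of the members, each under the settings that apply to it, 322 pairs of result and setting were stable. Of the other pairs, 18 lost a call, 3 gained one and 11 changed sign. Most stable pairs were of results that were not called in the main fit or carry no call. With 1 library left out, the averaged strain call held in 6 of 12 fits for Fabp7, 12 of 12 for Fabp5 and 7 of 12 for Fabp3. The strain call of Fabp5 under CRS held in 2 of 6. Stable means the same direction and call. For the Fabp7 CRS contrasts, which carry no call, it means the same direction and a shift under 0.25 log2 units, the pooled SD. Between strains, the calls of the lipid binding list (Fabp7 included) and the astrocyte list, averaged, were 5 and 10, and ran from 2 to 5 and from 8 to 12.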
